A study of Homo sapiens with 4 samples.

Results

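The transcripts described here encode 40 proteins of the U2 small nuclear ribonucleoprotein (U2 snRNP), its partners at the 3' splice site, and the Sm and LSm rings. They were chosen by name, as the rows of the count table whose gene symbol is on a list of 40, and all 40 were found among 57992 rows. The cells were Molm13, an acute myeloid leukaemia (AML) cell line with a KMT2A fusion, in a derivative named VEN-R in the labels of a study on resistance to venetoclax, an inhibitor of BCL2. Every library came from cells given doxycycline to switch on a short hairpin RNA. The hairpin was a control (shCtrl) in 2 libraries, and in the other 2 it was directed at PRMT9, an arginine methyltransferase (shPRMT9). Libraries were made from poly(A) RNA. The labels do not say whether the libraries of a group are separate cultures, nor how many hairpin sequences or clones were used. P-values thus rest on the spread among these 4 libraries alone, which may be technical.

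The spliceosome removes introns from precursor RNA. SF1 and the U2AF pair first mark the branch point and the 3' splice site, and the U2 snRNP then takes over the branch point through its SF3A and SF3B subcomplexes. SF3B2, a subunit of SF3B, is a known substrate of PRMT9. A ring of Sm proteins is the shared core of the U1, U2, U4 and U5 particles, and a ring of LSm proteins binds the U6 RNA. LSM1 replaces LSM8 in a cytoplasmic ring that acts in mRNA decay. Counts here are per gene, so they give RNA levels of these factors and not the splicing of their targets.

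Total counts per library ranged from 28592902 to 33845172, and the 40 members took 0.597% and 0.599% of them in the control libraries against 0.495% and 0.489% after PRMT9 knockdown. PRMT9 itself had 398 and 406 counts in the controls and 81 and 78 after knockdown, a log2 fold change of -2.48 (SE 0.12, edgeR adjusted p = 1.13e-11). All 11 myeloid markers examined were detected, and 10 of them rose and 1, MPO, fell (edgeR adjusted p below 0.05). Across all tested genes 33.4% were called higher and 34.5% lower. Their summed level went from 1855 and 1864 CPM (counts scaled by library total) in the controls to 2722 and 2725 CPM, and the part of this shift in the results below was not tested. The erythroid genes HBA1, HBB and ALAS2 had no count in any library. Of 6 epithelial and stromal genes EPCAM and KRT19 had none, and the list summed to 0.562 and 0.529 CPM in the controls and 1.29 and 1.89 CPM after knockdown. Most of that difference was in PDGFRB, with 6 and 3 counts against 24 and 41 (log2 fold change 2.67, edgeR adjusted p = 0.000121). The 6 lymphocyte genes summed to 0.562 and 0.741 CPM against 0.679 and 0.736 CPM, and the part of these lists in the results was not tested either. In bulk RNA, fewer cells that make a transcript and less of it per cell cannot be told apart.

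Transcripts of the U2, Sm and LSm proteins were mostly lower after PRMT9 knockdown, and those of both rings were lower without exception. Of the 40 members, 33 fell and 4 rose at an edgeR adjusted p below 0.05, and 3 did not pass. Across all 15193 tested genes 68.0% were called, 34.5% as lower and 33.4% as higher. The median log2 fold change of the members was -0.47, against 0.00 for all tested genes. The changes were moderate: 18 members changed by 0.5 or more on the log2 scale and 1 member, DDX46, by 1 or more. In 39 of the 40 members the libraries of the groups did not overlap, as in 83.3% of all tested genes. RPKM is reads scaled by exon length and TMM-scaled library total. Across the 40 genes, the Spearman correlation of the log2 fold change was 0.185 with control RPKM and 0.0518 with exon length. These correlations describe genes that share the 4 libraries.

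**Figure D1:**
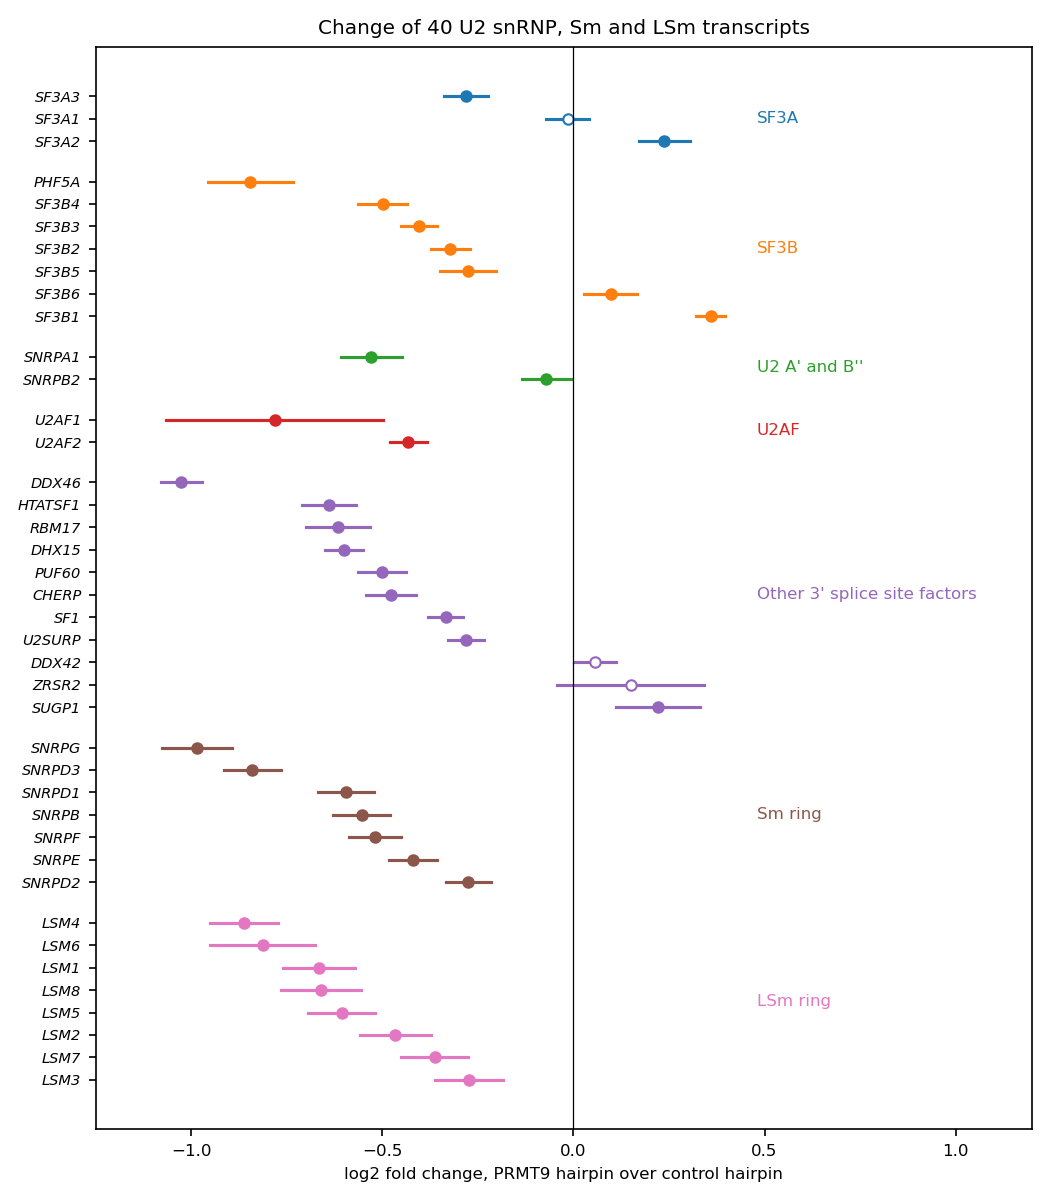
Log2 fold change of each of the 40 transcripts, PRMT9 hairpin over control hairpin, by subgroup. Points are edgeR estimates and lines their 95% confidence intervals, filled points passed an adjusted p of 0.05, and every Sm and LSm gene lies to the left of 0 while SF3B1 (0.36) lies farthest to the right.

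SF3A, the heterotrimer that joins the U2 particle to the branch region, showed no common direction. SF3A2, which contacts the U2 RNA region near the branch point, had 37.3 and 36.04 RPKM in the controls and 42.9 and 43.6 RPKM after knockdown. Both knockdown libraries were above both controls, a log2 difference of 0.24 (SE 0.03, edgeR adjusted p = 3.95e-06). SF3A3 went the other way, from 41.5 and 42.0 RPKM to 33.5 and 35.1 RPKM (log2 fold change -0.28, edgeR adjusted p = 7.92e-08). SF3A1 did not pass, at 33.5 and 32.7 RPKM against 32.7 and 32.7 RPKM (log2 fold change -0.015, edgeR adjusted p = 0.638, 95% confidence interval -0.07 to 0.04). The sign of SF3A1 turned without control replicate 1 (0.014) and with a filter at 1 CPM (0.017), and with upper-quartile scaling it was called higher (0.074, edgeR adjusted p = 0.0221). Without length scaling SF3A3 stayed above SF3A2, with means of 198.0 and 115.0 CPM in the controls and 162.9 and 135.7 CPM after knockdown. In length-scaled level SF3A2 exceeded SF3A3 only after knockdown. The RPKM ratios were 0.900 and 0.857 in the controls and 1.28 and 1.24 in the knockdown libraries. For this and the other ratios given here the exact two-sided permutation p was 0.333 unless another value is named, the smallest that 2 libraries against 2 allow. Exons of SF3A2 overlap those of PLEKHJ1 on the opposite strand over 12.7% of their bases, and whether the counting used strand is not given in the sources used here.

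SF3B, the subcomplex that clamps the branch point, split into 2 rises and 5 falls, where 33.4% of all tested genes were called higher and 34.5% lower. SF3B1, its largest scaffold and a frequent target of mutation in myeloid disease, had the largest rise of all 40 members. It had 67.7 and 70.0 RPKM in the controls and 88.3 and 88.0 RPKM after knockdown, a log2 fold change of 0.36 (SE 0.02, 95% confidence interval 0.32 to 0.40, edgeR adjusted p = 2.05e-11). SF3B2, the PRMT9 substrate (chromosome 11, 66050729 to 66069308 on GRCh38), moved in the opposite direction. Its RPKM was 26.2 and 27.3 in the controls and 21.6 and 21.1 after knockdown, which left 79.96% of the control level (log2 fold change -0.32, SE 0.02, edgeR adjusted p = 3.16e-09). The groups did not overlap in either gene, and the RPKM ratio of SF3B1 to SF3B2 went from 2.59 and 2.56 to 4.09 and 4.17. SF3B2 had a fold change well inside the range of its subcomplex. It was the middle of the 7 genes, so the SF3B median of -0.32 is its own value. Of all tested genes, 27.9% had a lower value.

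PHF5A, the small zinc finger protein that with SF3B1 forms the pocket for the branch point adenosine, fell most within SF3B. Its level was 31.1 and 31.3 RPKM in the controls and 17.3 and 17.4 RPKM after knockdown, 55.7% of the control (log2 fold change -0.85, SE 0.05, edgeR adjusted p = 2.58e-10). SF3B4, an RNA-binding subunit, fell by 0.50, SF3B3, a scaffold of beta-propellers, by 0.40, and the small subunit gene SF3B5 by 0.28. SF3B5 was the most abundant member per length, at 119.8 RPKM (mean of the controls) and 98.8 RPKM (mean after knockdown). SF3B6, which contacts the branch point region, had 71.0 and 75.5 RPKM in the controls and 78.0 and 78.3 RPKM after knockdown. The groups stood apart by a small margin, and the rise of 0.097 (edgeR adjusted p = 0.0144) kept its call in only 6 of 15 alternatives. Its adjusted p was 0.186 without control replicate 1, 0.0627 without PRMT9 hairpin replicate 1 and 0.0608 without PRMT9 hairpin replicate 2, with log2 fold changes of 0.063, 0.097 and 0.099.

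The proteins A' and B'' bind a stem loop of the U2 RNA as a pair, and their transcripts changed by different amounts. SNRPA1, which encodes A', went from 20.1 and 20.5 RPKM to 14.3 and 13.8 RPKM (log2 fold change -0.53, SE 0.04, edgeR adjusted p = 1.60e-09). SNRPB2, which encodes B'', had 49.1 and 51.6 RPKM in the controls and 48.7 and 47.0 RPKM after knockdown. Its change of -0.071 passed narrowly (edgeR adjusted p = 0.0461), kept its call in 3 of 15 alternatives and was lost without control replicate 2 (-0.037, adjusted p = 0.374) or PRMT9 hairpin replicate 2 (-0.041, adjusted p = 0.374). With upper-quartile scaling its sign turned (0.018, adjusted p = 0.614). The RPKM ratio of SNRPB2 to SNRPA1 was 2.44 and 2.52 in the controls and 3.41 and 3.40 after knockdown.

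Both subunits of U2AF fell, but the count of U2AF1 has to be read apart from the rest. U2AF2, the large subunit that binds the polypyrimidine tract, went from 70.1 and 72.4 RPKM to 52.3 and 53.0 RPKM (log2 fold change -0.43, SE 0.02, edgeR adjusted p = 2.83e-11). U2AF1, the small subunit that reads the AG at the 3' splice site, had only 200 and 207 counts in the controls and 139 and 123 after knockdown. Its log2 fold change was -0.78 with a wide interval of -1.07 to -0.50 (edgeR adjusted p = 6.56e-05). Of all windows of 50 bases in U2AF1 transcripts of GENCODE release 29, 94.3% also occur in U2AF1L5, a near-identical copy on chromosome 21 of GRCh38 that had 4 to 9 counts per library. The RPKM of U2AF2 was 114 times that of U2AF1 in the controls (mean 0.627 RPKM). Without length scaling the control means were 293.1 CPM for U2AF2 and 6.96 CPM for U2AF1. How reads with several matches were counted is not given in the sources used here, and their part in this low level was not tested. On the log2(RPKM + 1) scale without a filter the change of U2AF1 was -0.25 and did not pass (adjusted p = 0.112). Adding 1 shrinks by arithmetic a change between levels as low as 0.627 RPKM in the controls and 0.365 RPKM after knockdown (means). The median of the pair, -0.61, was -0.34 on that scale.

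**Figure D2:**
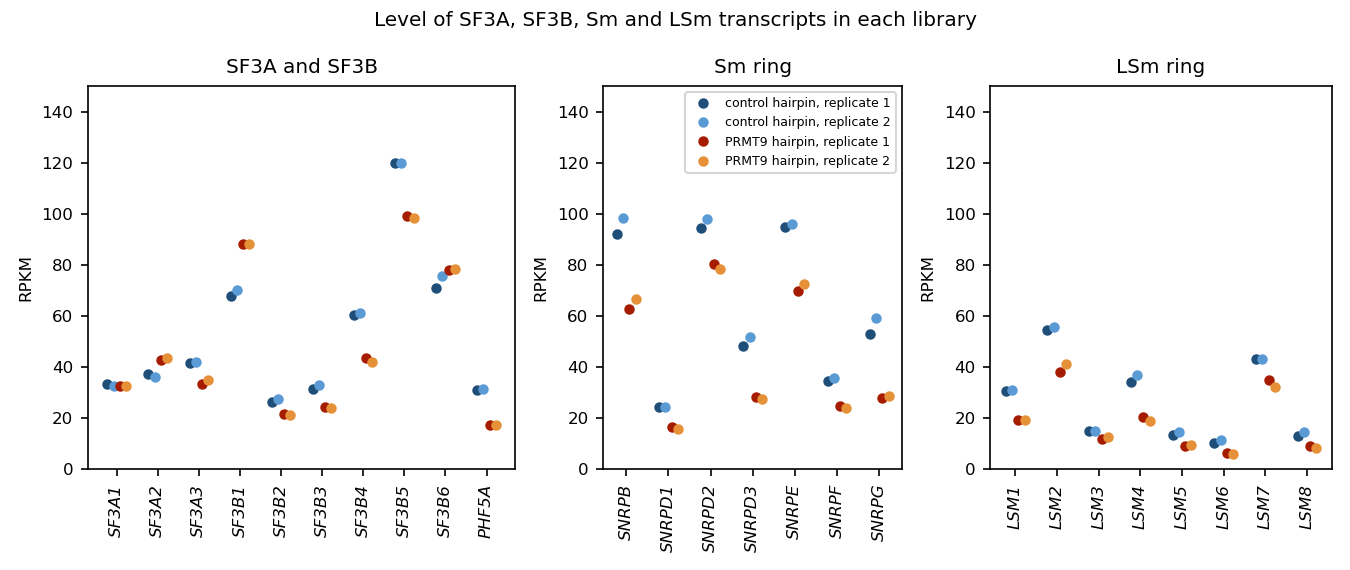
RPKM of each SF3A, SF3B, Sm and LSm transcript in the 4 libraries, on linear axes that start at 0. Control libraries are blue and PRMT9 hairpin libraries red and orange. The knockdown points lie below the control points in all 7 Sm and all 8 LSm genes, and above them in SF3A2, SF3B1 and SF3B6. Among all tested genes, the groups did not overlap in CPM in 83.3%.

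Among 11 other factors of the branch point and 3' splice site, 8 fell, 1 rose and 2 did not pass (median -0.48). Across all tested genes 34.5% were called lower and 33.4% higher. The DEAD-box helicase gene DDX46, whose product acts when the U2 snRNP joins the branch point, had the largest fall of all 40 members. It had 27.3 and 27.6 RPKM in the controls and 13.6 and 13.3 RPKM after knockdown, 49.1% of the control (log2 fold change -1.03, SE 0.03, edgeR adjusted p = 2.75e-15). Of all tested genes, 3.77% had a lower fold change. DDX42, a related helicase that also binds SF3B1, had 23.5 and 24.3 RPKM in the controls and 25.3 and 24.3 RPKM after knockdown. Its change of 0.056 did not pass (edgeR adjusted p = 0.0695). It passed without control replicate 2 (0.075, adjusted p = 0.0206), without PRMT9 hairpin replicate 2 (0.089, adjusted p = 0.0273), with upper-quartile scaling (0.14, adjusted p = 0.000111) and where genes under 1 CPM were left out (0.088, adjusted p = 0.00676). The order of the helicases by RPKM was exchanged. The ratio of DDX42 to DDX46 was 0.863 and 0.879 in the controls and 1.86 and 1.82 after knockdown. DDX46 shares 2.56% of its exon bases with C5orf24 on the same strand, and C5orf24 had 17.1% as many counts. DDX42 shares 2.03% with CCDC47 on the opposite strand, and CCDC47 had 53.0% as many counts.

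DHX15, the helicase that takes apart spliceosomes, fell by 0.60 to 66.0% of its control level. HTATSF1, which rides on SF3B1 in the U2 particle before DDX46 acts, fell by 0.64, from 34.1 and 35.9 RPKM to 22.7 and 22.2 RPKM. RBM17, a SF3B1-binding regulator of splice site choice, fell by 0.62, and its U2-associated partners CHERP and U2SURP fell by 0.48 and 0.28. CHERP shares 16.7% of its exon bases with C19orf44 on the opposite strand, and C19orf44 had 10.2% as many counts. PUF60, a relative of U2AF2 that binds pyrimidine tracts, fell by 0.50. SF1, which recognises the branch point before the U2 snRNP does, went from 55.6 and 56.4 RPKM to 44.2 and 44.5 RPKM (log2 fold change -0.33, SE 0.02, edgeR adjusted p = 4.59e-10). SUGP1, a G-patch protein that works with SF3B1 and DHX15, was the 1 riser. Its RPKM was 6.47 and 6.12 in the controls and 7.50 and 7.18 after knockdown (log2 fold change 0.22, SE 0.05, edgeR adjusted p = 0.00122). On the log2(RPKM + 1) scale without a filter the rise of SUGP1 was 0.19 (adjusted p = 0.0583). SUGP1 overlaps MAU2 on the opposite strand over 3.06% of its exon bases, and MAU2 had 289.8% of its counts. ZRSR2, a U2AF1 relative that serves the 3' splice sites of U12-type introns, was the lowest of these genes at 4.77 RPKM (mean of the controls) and did not pass (log2 fold change 0.15, edgeR adjusted p = 0.154). It passed with upper-quartile scaling (0.24, adjusted p = 0.0287). Other genes share 19.1% of the 50-base windows of ZRSR2.

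All 7 genes of the Sm ring fell, where 34.5% of all tested genes were called lower. The median of their log2 fold changes was -0.55, in a range from -0.98 to -0.28. SNRPG, which encodes SmG, had 52.8 and 59.3 RPKM in the controls and 27.9 and 28.5 RPKM after knockdown, 50.5% of the control (log2 fold change -0.98, SE 0.04, edgeR adjusted p = 2.98e-12). SNRPD3, which encodes SmD3, went from 48.1 and 51.8 RPKM to 28.3 and 27.3 RPKM (log2 fold change -0.84, SE 0.03, edgeR adjusted p = 1.46e-12). SNRPD1 and SNRPB, whose products with SmD3 carry the arginine-glycine tails that PRMT5 methylates, fell by 0.60 and 0.55. SNRPF fell by 0.52 and SNRPE by 0.42. The smallest fall was in SNRPD2, which encodes SmD2, from 94.5 and 98.0 RPKM to 80.4 and 78.4 RPKM (log2 fold change -0.28, edgeR adjusted p = 1.34e-07). No library of the knockdown reached a control library in any of the 7. Among all tested genes, the groups did not overlap in 83.3%.

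The proteins sit in the ring as 1 copy each. Mean control levels of their transcripts ranged from 100.5 CPM (SNRPG) to 154.7 CPM (SNRPD2), with SNRPD1 at 119.4 CPM. RPKM, which divides by all annotated exon bases (4909 in SNRPD1 and 1608 in SNRPD2), spread more widely. In the controls the highest RPKM of the ring, SNRPD2 at 96.3, was 3.96 times the lowest, SNRPD1 at 24.3, and after knockdown the highest was 4.94 times the lowest. The RPKM ratio of SNRPG to SNRPD2 went from 0.558 and 0.605 to 0.347 and 0.364. Pseudogenes named after SNRPG number 20 in the table and together held 7.60% as many counts as SNRPG, and for SNRPE 9 such pseudogenes held 0.850%. Of the 50-base windows of SNRPD3, 21.5% also occur in other genes, and 10.4% in GUCD1, whose exons overlap its own on the opposite strand.

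All 8 LSm genes fell as well, where 34.5% of all tested genes were called lower. The median of their log2 fold changes was -0.63, in a range from -0.86 to -0.27. LSM4, whose product has an arginine-glycine tail like those of the Sm proteins, fell most, from 34.2 and 36.9 RPKM to 20.4 and 18.7 RPKM (log2 fold change -0.86, SE 0.04, edgeR adjusted p = 1.06e-11). LSM6, the least abundant of the ring, had 10.3 and 11.5 RPKM in the controls and 6.25 and 6.11 RPKM after knockdown (log2 fold change -0.81, SE 0.06, edgeR adjusted p = 7.14e-09). Of the 2 proteins that decide where the ring works, LSM1, of the cytoplasmic decay ring, fell by 0.67 and LSM8, of the nuclear U6 ring, by 0.66. The RPKM ratio of LSM1 to LSM8 was 2.39 and 2.14 in the controls and 2.17 and 2.33 after knockdown, and the groups overlapped (exact two-sided permutation p = 1). RPKM divides by 1690 annotated exon bases in LSM1 and 6210 in LSM8. Without length scaling LSM8 was above LSM1, with means of 84.7 and 52.1 CPM in the controls and 53.6 and 32.8 CPM after knockdown. LSM5 fell by 0.61, LSM2 by 0.47 and LSM7 by 0.36. LSM3, which shares 8.34% of its exon bases with XPC on the opposite strand, fell least, from 14.88 and 14.95 RPKM to 11.98 and 12.6 RPKM (log2 fold change -0.27, edgeR adjusted p = 1.94e-05). LSM1 shares 11.7% of its exon bases with BAG4, also on the opposite strand.

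Summed per complex, the levels ranged from near that of the controls in SF3A to the lowest shares in the rings. The summed RPKM of SF3A was 112.3 and 110.8 in the controls and 109.2 and 111.3 after knockdown, groups that overlapped (98.8% of the control mean, exact two-sided permutation p = 0.667). SF3B kept 89.9% of its control sum and the A' and B'' pair 87.6%. The sum of U2AF, nearly all of it U2AF2, was at 73.8%, and that of the other 3' splice site factors at 74.2%. The Sm ring went from 441.1 and 463 to 310.1 and 313 summed RPKM, 68.9% of the control, and the LSm ring from 213.8 and 222.3 to 149.2 and 147.7, 68.1%. In each of these but SF3A the groups did not overlap, with the smallest possible exact p of 0.333. Differences between the subgroups were not tested, since their members are not replicates of a condition.

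**Figure D3:**
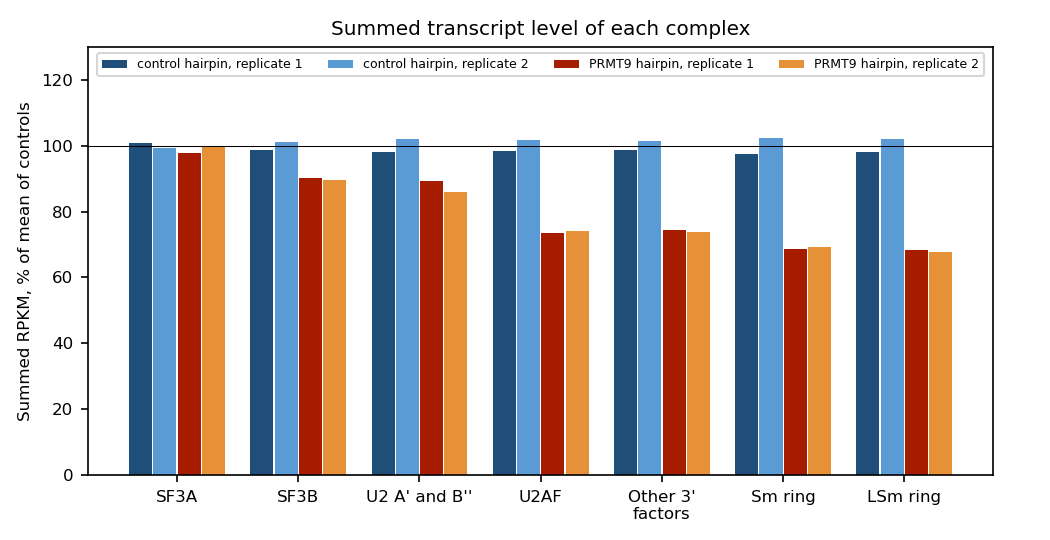
Summed RPKM of each subgroup in each library, as a percentage of the mean of the 2 control libraries (bars start at 0). SF3A stays at the control level (98.8% on average), and the Sm and LSm rings are at 68.9% and 68.1%.

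Other parts of the splicing machinery were examined to place these values, as counts from the same test. In that test 34.5% of all tested genes were called lower and 33.4% higher. Of 9 genes of the U1 snRNP and its partners, 6 fell and 2 rose (median -0.20), and PRPF39 had the larger rise, 0.10. Of 17 proteins of the U4/U6.U5 tri-snRNP, 13 fell and 1 rose (median -0.35). SNRNP40, a U5 protein, had the largest fall of these, to 49.9% of its control level, and PRPF6, a bridge within the tri-snRNP, was the rise, 0.14. In the PRPF19 complex and factors of the catalytic steps the directions were mixed, with 7 falls (31.8%) and 8 rises (36.4%) among 22 genes. These percentages are near those of all tested genes. The median was 0.00, in a range from BUD31 (-0.41) to SYF2 (0.35). The U11/U12 proteins of the minor spliceosome were split as well, with 4 falls and 4 rises among 10 (40% each). Their median was -0.03, in a range from SNRNP25 (-0.84) to SCNM1 (0.44).

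Of 18 genes that act in the assembly of Sm rings on small nuclear RNAs and in snRNP import, 15 fell, 1 rose and 2 did not pass (median -0.31). Across all tested genes 34.5% were called lower and 33.4% higher. WDR77, the partner of PRMT5 in the complex that methylates Sm proteins, fell by 1.09, from 12.8 and 13.1 RPKM to 6.02 and 6.13 RPKM (edgeR adjusted p = 2.22e-11), and GEMIN7, a part of the SMN complex, was the rise (0.29). The partners of the LSM1 ring in mRNA decay had no common direction, with 5 falls and 3 rises among 10 genes (median -0.09), from the decapping enzyme gene DCP2 (-0.57) to DCP1B, a cofactor of decapping (0.66). Of 8 relatives of members 6 were tested: LSM12 (-0.60) had the larger of 2 falls, and SNRPN, a close copy of SNRPB, rose by 0.46 from a level of 0.771 RPKM (mean of the controls), against 95.05 RPKM for SNRPB.

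**Figure D4:**
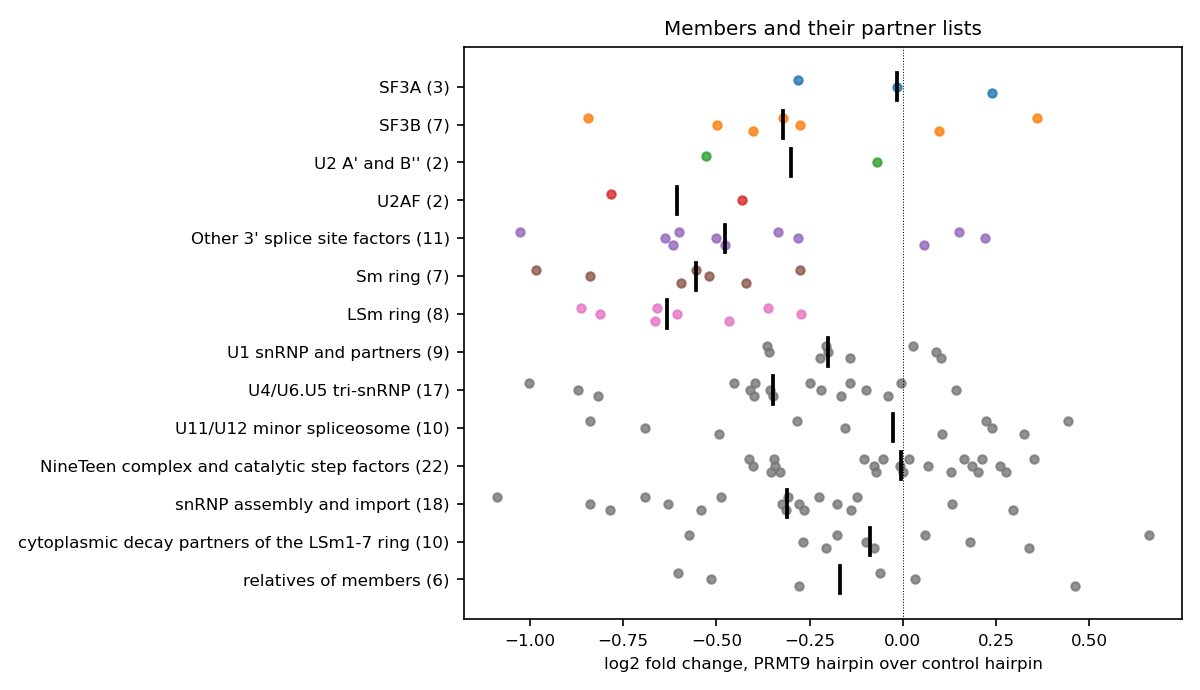
Log2 fold change of each gene, PRMT9 hairpin over control hairpin, for the 7 subgroups (coloured) and 7 lists of partners and relatives (grey), with the number of tested genes in brackets. Each point is a gene and each black bar the median of its list; the medians of the Sm (-0.55) and LSm (-0.63) genes lie to the left of 0 with all of their points.

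The start regions of the members often hold the same short element, in genes that fell and in genes that rose. RefSeq promoters (GRCh38.p14, 250 bases before the start to 50 after) were found for 33 of the 40. For a member with several entries the one nearest its gene start in the count table was used. For the tested genes as a whole the first listed entry was used, and the set of all promoters holds every entry. The shares below thus rest on windows chosen in different ways. In 15 of the 33 the RefSeq start lies within 100 bases of the gene start in the count table. It lies 1635 bases away in SF3B2 and 37073 bases away in U2SURP, so the windows of such genes describe the RefSeq start only. An ETS core, the string CCGGAAG on either strand that is read by factors such as GABPA, occurs in 18 of the 33 (54.5%), against 10.3% of all 35116 promoters and 19.8% of those of 9691 tested genes. Of these 18 genes 14 fell, 2 rose and 2 did not pass, and of all 40 members 82.5% fell. Across all tested genes 34.5% were called lower and 33.4% higher. The median log2 fold change of the 18 was -0.37, against -0.47 in the 15 members with no match. To show the element in genes that moved in different ways, the 150 bases before the start and 30 after it are given 5' to 3' on the strand of the gene, with ETS cores in capitals: DDX46 and SNRPG had the largest falls, SNRPB and SF3B2 fell by less, and SF3A2 rose. SF3B1, the largest rise, has no ETS core in its window but an E-box (CACGTG), given in capitals there. The only other member with an E-box, U2SURP, fell (log2 fold change -0.28).

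DDX46 (chr5:134758629-134758808, plus strand): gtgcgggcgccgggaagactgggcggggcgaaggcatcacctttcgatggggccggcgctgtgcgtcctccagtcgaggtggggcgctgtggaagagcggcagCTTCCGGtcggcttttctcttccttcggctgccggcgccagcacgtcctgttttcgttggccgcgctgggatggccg

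SNRPG (chr2:70293429-70293608, minus strand): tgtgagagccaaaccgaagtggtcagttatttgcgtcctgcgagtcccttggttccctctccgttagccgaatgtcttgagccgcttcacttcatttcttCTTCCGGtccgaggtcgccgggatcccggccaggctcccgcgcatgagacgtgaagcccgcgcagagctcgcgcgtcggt

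SNRPB (chr20:2470760-2470939, minus strand): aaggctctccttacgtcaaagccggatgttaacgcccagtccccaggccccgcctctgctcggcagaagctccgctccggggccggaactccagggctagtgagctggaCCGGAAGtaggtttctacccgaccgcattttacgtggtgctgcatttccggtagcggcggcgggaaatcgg

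SF3B2 (chr11:66052214-66052393, plus strand): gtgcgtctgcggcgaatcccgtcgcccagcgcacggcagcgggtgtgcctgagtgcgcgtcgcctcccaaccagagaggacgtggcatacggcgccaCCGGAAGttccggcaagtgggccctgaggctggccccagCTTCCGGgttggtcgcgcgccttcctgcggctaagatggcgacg

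SF3A2 (chr19:2236674-2236853, plus strand): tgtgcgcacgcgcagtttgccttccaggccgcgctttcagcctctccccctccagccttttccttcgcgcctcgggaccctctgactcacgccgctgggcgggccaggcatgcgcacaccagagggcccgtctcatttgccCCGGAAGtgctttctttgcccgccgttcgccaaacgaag

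SF3B1 (chr2:197435064-197435243, minus strand): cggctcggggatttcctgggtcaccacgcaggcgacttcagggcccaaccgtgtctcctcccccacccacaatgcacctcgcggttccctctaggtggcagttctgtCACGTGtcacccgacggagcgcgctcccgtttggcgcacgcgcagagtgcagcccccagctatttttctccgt

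SF3B2 holds the element on both strands within this stretch. Of the other strings searched on both strands, the YY1 core AAGATGGC occurs in 5 of the 33 promoters (15.2%), among them SF3B2, against 2.90% of all promoters and 5.60% of those of tested genes. The GC box GGGCGG occurs in 66.7%, close to the 69.2% of tested genes, the NF-Y string CCAAT in 30.3% against 36.7%, the NRF1 string GCATGCGC in 9.10% against 5.60%, and the E-box in 6.10% against 10.3%. The E2F strings TTTCCCGC (LSM3 and SNRPB) and TTTGGCGC (SF3B1) occur in 2 promoters and 1 promoter, and the TATA box TATAAA in none of the 33, against 5.60% of tested genes. None of the strings contains another. A match describes these letters only, and binding was not measured.

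**Figure D5:**
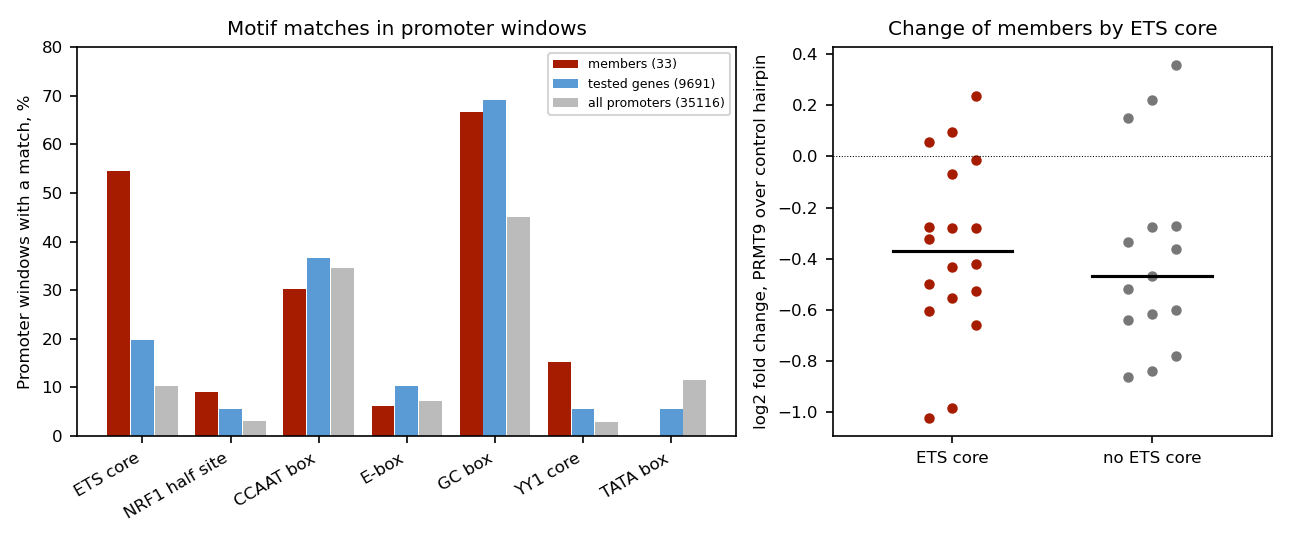
Left, the percentage of promoter windows of 300 bases with a match, for 33 members, 9691 tested genes and all 35116 promoters (bars start at 0; the 2 E2F strings are left out). Right, log2 fold change of the members with an ETS core (18 genes) and without (15 genes), with black bars at the medians of -0.37 and -0.47; the ranges overlap, and both hold falls and rises.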

How the data were processed

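The 40 members and all lists were chosen with earlier results of these data known. For each of the 4 libraries the deposited values were raw counts per gene and RPKM, both made by the authors. The submitters' processing notes list Trimmomatic 0.39, SAMtools 1.10 and STAR 2.7.2a with GRCh38. The counter, its use of strand and its treatment of reads with several matches: not given in the sources used here. The deposited RPKM equalled count over exon length and TMM-scaled library total. All 40 members have the same start and end in GENCODE release 29, and 39 have the same exon length. The exception is LSM6, with 2605 bases in the count table and 3993 in that release, and its RPKM rests on the shorter length.

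Genes were kept by filterByExpr (minimum count 10) and tested with edgeR 4.0.16 (quasi-likelihood, TMM scaling, robust, no replicate block) in R 4.3.3, with Benjamini-Hochberg adjustment over 15193 genes and a threshold of 0.05. The test was first run on simulated data with known changes. Alternatives used limma 3.58.1 and DESeq2 1.42.0. Libraries of a group differed by more than sampling noise (chi-square per degree of freedom 2.91 and 1.60). Named genes were PRMT9, the members, and the called gene with the largest rise and fall of each partner list, with U2AF1L5 and SNRPN as copies; 1 gene that this rule names is not reported here. Ratios between members were chosen with these results known. Total counts were 28592902 to 33845172 per library.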

Additional observations from a re-analysis of the deposited data

How the results depend on the processing

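The count of members that fell was 33, and 31 to 33 in all 15 alternatives. The count that rose, 4, was 7 with upper-quartile scaling and 2 in log2(RPKM + 1) without a filter, and 3 to 5 in the others. Leaving out 1 library gave 32 to 33 falls and 3 to 5 rises among members, and 4770 to 5165 falls and 4460 to 4953 rises among all genes; the lone library of a group is then assumed to vary like the others. Direction and call held in every alternative for 33 of the 40 members. The exceptions were SF3A1, SF3B6, SNRPB2, U2AF1, SUGP1, ZRSR2 and DDX42. SF3A1, and with it the SF3A median, turned from -0.015 to 0.074 with upper-quartile scaling and 0.017 with a filter at 1 CPM, ranged from -0.034 to 0.014 with 1 library left out (positive without control replicate 1), and SNRPB2 turned to 0.018 with upper-quartile scaling. That scaling raised the median of all genes by 0.088 and gave -0.38 for the members, whose distance from all genes stayed at -0.47. The replicate numbers are not said to pair libraries, and the differences between replicates 1 and 2 correlated at -0.031 across genes between the groups. With the replicate block 32 members fell and 4 rose, and only SNRPB2 lost its call (-0.071, adjusted p = 0.0532). U2AF1 and ZRSR2 had the fewest counts among members, 123 to 373 per library, and the part of depth and of shared sequence in their values was not tested.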
